A study of Homo sapiens with 6 samples.

Results

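The human mitochondrial genome is a small circular DNA whose 37 annotated genes were taken here as all rows of the count table with a symbol that begins with MT-, out of 60564 listed genes. They comprise 13 protein genes, 2 rRNA genes and 22 tRNA genes, and GENCODE 29 (GRCh38) places all 37 on chromosome M. All 37 had counts and all 37 passed the filter on low counts, against 18786 of the 60564 genes overall. Their counts in single libraries ran from 5 for a serine tRNA gene, MT-TS1, to 856897 for MT-CO1. RNA was sequenced from CAL27, an established cell line of a squamous cell carcinoma of the tongue, in 2 groups of 3 libraries. The CNTNAP2-203 OE cells were infected with a lentivirus carrying CNTNAP2-203, a transcript of CNTNAP2, and the control cells (genotype given as WT, described with EGFP) with one carrying a control vector. Both groups were stable lines in DMEM with fetal bovine serum after 2 weeks in 5 μg/ml puromycin. The labels do not say whether a line was a clone or a pool, nor whether replicates were grown apart, so a p-value here weighs a difference only against the scatter of these libraries, part of which may be technical.

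Both strands of mitochondrial DNA are transcribed as long polycistronic RNAs, which are cut at the tRNAs that punctuate them to release mRNAs and rRNAs. Transcription from the heavy strand yields 28 of the 37 genes, both rRNAs and 12 of the mRNAs among them, and transcription from the light strand yields MT-ND6 and 8 tRNAs. The proteins are core subunits of complexes I, III, IV and V of oxidative phosphorylation, in which the remaining subunits are encoded in the nucleus, and the rRNAs and tRNAs serve the translation of these mRNAs inside the organelle. Since mRNAs of a strand begin in shared precursors, their relative levels are known to be set largely after transcription.

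The deposited counts summed to between 36843190 and 42412703 per CNTNAP2-203 OE library and to between 38769375 and 41754789 per control library. CNTNAP2 had 140022, 156055 and 119280 counts in CNTNAP2-203 OE, against 0, 3 and 4 counts in control. Summed CPM (counts scaled to library size with TMM factors) of 7 squamous epithelial markers lay between 12920 and 15767 in CNTNAP2-203 OE and between 12748 and 14656 in control. Fibroblast markers, 4 of 6 tested, summed to 40.004 to 42.9 CPM in CNTNAP2-203 OE against 40.9 to 45.9 CPM in control, leukocyte markers, 3 of 6 tested, to 54.8 to 62.3 CPM in CNTNAP2-203 OE against 50.7 to 69.4 CPM in control, and endothelial markers, 2 of 5 tested, to 7.74 to 11.5 CPM in CNTNAP2-203 OE against 6.10 to 9.58 CPM in control. Among the markers that did not pass the filter on low counts were PTPRC, PECAM1, COL3A1, DCN, LYZ and TEK, and KDR was at 0 in all libraries. Other members of these lists had counts. CD68 averaged 33.9 CPM in CNTNAP2-203 OE and 31.1 CPM in control, and CD14 24.96 and 28.1 CPM. COL1A1 averaged 25.7 CPM in CNTNAP2-203 OE and 29.6 CPM in control, and CDH5 7.94 and 6.04 CPM. Tested but low were CD3E at 0.669 and 0.949 CPM and PDGFRB at 1.18 and 0.768 CPM. The smallest library, CNTNAP2-203 OE replicate 3, also stood apart in its TMM factor, 0.951 against 0.999 to 1.02 in the other libraries, and values that moved with it are also given without it.

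None of the 37 genes passed edgeR's quasi-likelihood test of CNTNAP2-203 OE against control (Benjamini-Hochberg adjusted p under 0.05 over all 18786 tested genes), which 1.39% of all tested genes passed. The lowest adjusted p among the 37 was 0.126, for MT-TH. The 13 protein genes had a median log2 fold change of 0.05 and a range of -0.27 to 0.23, beside a median of -0.00 over all tested genes. The tRNA genes spread more widely, from -0.31 to 0.64. All 9 genes with an unadjusted p under 0.05 were tRNA genes, which is 24.3% of the 37 genes where 17.2% of all tested genes had such a p. Of these, 7 were higher, beside 9.41% of all tested genes, and 2 lower, beside 7.84%. The number of the 37 with an unadjusted p under 0.05 fell to 3 without control replicate 2 and to 4 without control replicate 3. The CNTNAP2-203 OE libraries lay wholly above the controls in 5 genes and wholly below them in 2, beside 13.7% and 12.8% of all tested genes. Together these are 18.9% of the 37 genes, below the 26.5% of all tested genes whose groups do not overlap. All of the non-overlapping members were tRNA genes, which is 31.8% of the 22 tRNA genes, beside the same 26.5%. With DESeq2, which called 5.99% of all tested genes (3.46% higher), 3 of the 37 passed, MT-TH, MT-TS2 and MT-TG, all higher.

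**Figure D1:**
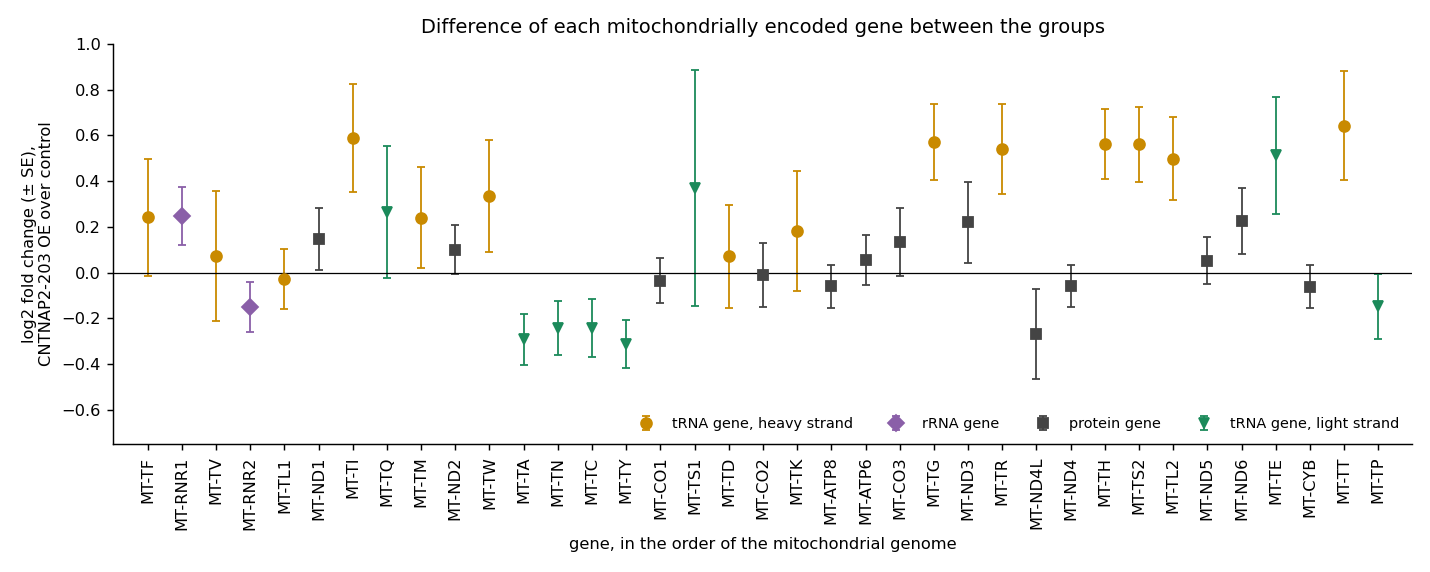
Log2 fold change of each of the 37 mitochondrially encoded genes, CNTNAP2-203 OE over control (y axis, point with its SE, 3 libraries per group), with genes on the x axis in their order along the mitochondrial genome. Protein genes stay between -0.27 and 0.23, most heavy-strand tRNA genes are positive, and the 4 adjacent light-strand tRNA genes MT-TA, MT-TN, MT-TC and MT-TY are negative, with none past the test.

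The share of counts in mitochondrially encoded genes overlapped between the groups. The 37 genes held 8.03%, 7.55% and 8.44% of all counts in CNTNAP2-203 OE replicates 1, 2 and 3, against 8.55%, 7.89% and 8.35% in control replicates 1, 2 and 3. The difference of -0.25 percentage points (means 8.01% ± 0.445 and 8.26% ± 0.340, SD, n = 3 each) was smaller than the spread within either group, with a two-sided exact permutation p = 0.6, where the smallest p that 3 against 3 libraries allow is 0.1. Protein genes supplied 7.43% ± 0.403 of counts in CNTNAP2-203 OE and 7.64% ± 0.311 in control, rRNA genes 0.520% ± 0.0419 and 0.569% ± 0.0341, and tRNA genes 0.0555% ± 0.00606 and 0.0573% ± 0.00107. With counts divided by gene length, the share did not overlap between groups. The 37 genes made up 27.9%, 26.8% and 27.3% of the summed FPKM in CNTNAP2-203 OE, against 28.98%, 28.3% and 28.9% in control (two-sided exact permutation p = 0.1). FPKM, the deposited measure, scales counts to gene length and depth, so that genes can be set against each other. In bulk RNA, fewer cells rich in mitochondrial RNA and less of it in each cell cannot be told apart.

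Per length, the 3 mitochondrial genes of cytochrome c oxidase, the last enzyme of the respiratory chain, had the highest FPKM of the mitochondrial genes. Over the 6 libraries MT-CO2 averaged 13510 ± 1351 FPKM, MT-CO3 10712 ± 1263 FPKM and MT-CO1 10411 ± 403 FPKM (SD, n = 6), and their ranges overlapped. MT-ATP8 at 7705 ± 524 FPKM and MT-ND4 at 7292 ± 303 FPKM came next and overlapped each other, with every library below every MT-CO1 value. MT-ND4L and MT-CYB were next by mean, at 4632 ± 974 and 3724 ± 195 FPKM. Their lowest libraries, at 2750 and 3527 FPKM, lay under the highest MT-ND3 library, at 3573 FPKM. Lower by mean came, in this order, MT-ND2, MT-ND3, MT-RNR2, MT-ATP6, MT-ND1, MT-ND5 and MT-ND6, between 2779 and 1472 FPKM, each overlapping the next. The highest and the lowest protein gene thus differed 9.18-fold per length, the lowest being MT-ND6, the protein gene of the light strand. MT-ATP8 and MT-ATP6 share an mRNA yet stood at 7705 and 2075 FPKM, so the FPKM of a gene is not the level of its mRNA. The kit keeps no strand information, so reads in MT-ND6 can come from RNA of the other strand. MT-RNR1, the 12S rRNA gene, was the lowest of the 15 longer genes at 752 ± 92.1 FPKM. The RNA had been depleted of rRNA before library preparation, so both rRNA levels are those left after depletion, and how evenly the libraries were depleted was not measured.

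**Figure D2:**
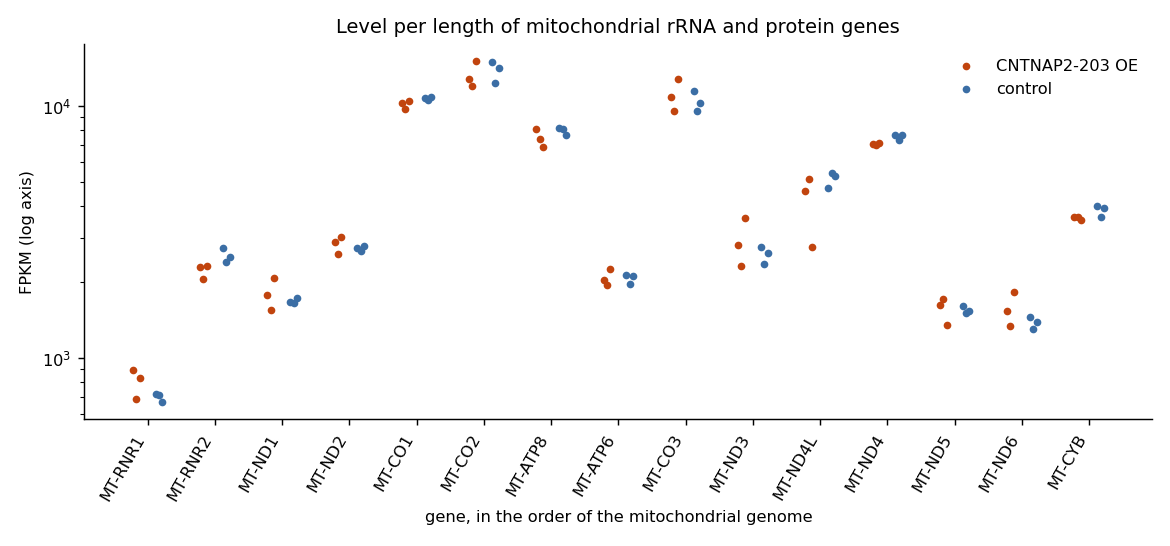
FPKM on a log axis for the 2 rRNA and 13 protein genes, in their order along the mitochondrial genome, with each library as a point (CNTNAP2-203 OE left, control right of each gene's tick). Genes differ up to 9.18-fold among the protein genes, with MT-CO2 on top, while the libraries of the 2 groups lie close together within each gene apart from 1 low CNTNAP2-203 OE library of MT-ND4L.

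Complex I, NADH dehydrogenase, takes 7 of its core membrane subunits from mitochondrial genes. Of these, 5 had a positive and 2 a negative log2 fold change, with a median of 0.10, and none passed. MT-ND6, the only mRNA of the light strand, had 984, 849 and 1241 CPM in CNTNAP2-203 OE, against 924, 820 and 886 CPM in control. Its log2 fold change of 0.23 (SE 0.145, edgeR adjusted p = 0.464) was the highest of the protein genes, the groups overlapped, and without CNTNAP2-203 OE replicate 3 it was 0.06. MT-ND3 had 1193, 967 and 1597 CPM in CNTNAP2-203 OE, against 1149, 982 and 1094 CPM in control, where the third CNTNAP2-203 OE library again lay alone at the top. Its log2 fold change of 0.22 was 0.00 without that library. MT-ND1, MT-ND2, MT-ND5 and MT-ND4 had log2 fold changes of 0.15, 0.10, 0.05 and -0.06. Without CNTNAP2-203 OE replicate 3 these were -0.0041, 0.016, 0.12 and -0.097.

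MT-ND4L, which encodes the smallest mitochondrial subunit of complex I, had the lowest log2 fold change of the protein genes. It had 1662, 1846 and 1055 CPM in CNTNAP2-203 OE, against 1693, 1921 and 1884 CPM in control. A single library, CNTNAP2-203 OE replicate 3, lay far below the others. The log2 fold change was -0.27 (SE 0.196, edgeR adjusted p = 0.517) with this library and -0.07 without it. MT-ND4L and MT-ND4 sit on 1 mRNA and their reading frames share 7 bases, so the counts of both come from the same molecules. MT-ND4L counts were 13.98%, 15.8% and 8.32% of MT-ND4 counts in CNTNAP2-203 OE, against 13.2%, 15.8% and 14.8% in control. The same library thus also stood apart in the ratio, which does not depend on library scaling (two-sided exact permutation p = 0.6).

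The same arrangement holds for the complex V (ATP synthase) genes, where MT-ATP8 and MT-ATP6 share 46 bases. The shared stretches show why reads there cannot be given to 1 gene. They are written 5′ to 3′ on the plus strand of chromosome M (GENCODE 29, GRCh38), with the start codon of the downstream reading frame in capitals; the second one begins with 12 bases of MT-ND4L ahead of the 7 shared bases.
MT-ATP8/MT-ATP6, chrM:8527-8572: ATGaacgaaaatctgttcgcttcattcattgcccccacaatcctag
MT-ND4L/MT-ND4, chrM:10748-10766: aaacctactccaATGctaa
The log2 fold change was -0.06 (SE 0.0943, edgeR adjusted p = 0.781) for MT-ATP8 and 0.05 (SE 0.111, edgeR adjusted p = 0.837) for MT-ATP6. MT-ATP8 counts were 120%, 115% and 91.8% of MT-ATP6 counts in CNTNAP2-203 OE, against 116%, 125% and 109% in control. CNTNAP2-203 OE replicate 3 was again the lowest, and the other libraries of the 2 groups overlapped. MT-ATP6 has a near-identical nuclear copy, MTATP6P1, whose counts equalled 45.1% to 52.0% of those of MT-ATP6 in each library.

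No gene of complexes III and IV passed either. MT-CYB, cytochrome b of complex III, averaged 5102 ± 98.8 CPM in CNTNAP2-203 OE and 5324 ± 293 CPM in control (SD, n = 3 each; log2 fold change -0.06, edgeR adjusted p = 0.774). MT-CO1, which held 23.4% to 25.2% of all counts of the 37 genes, averaged 19470 ± 1321 CPM in CNTNAP2-203 OE and 19955 ± 393 CPM in control, and MT-CO2 averaged 11303 ± 1774 and 11400 ± 1146 CPM. These differences in MT-CO1 and MT-CO2 were smaller than the spread between libraries of a group. MT-CO3 had 10398, 9034 and 12982 CPM in CNTNAP2-203 OE, against 10829, 8952 and 9780 CPM in control, with only replicate 3 above the controls. Its log2 fold change was 0.13 with that library and -0.02 without it.

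The 12S and 16S rRNAs, the RNA cores of the small and large mitochondrial ribosome subunits, lie next to each other at the start of the heavy-strand transcript, separated by the valine tRNA MT-TV. MT-RNR1 (12S) had 1052, 793 and 1029 CPM in CNTNAP2-203 OE, against 832, 816 and 772 CPM in control, and MT-RNR2 (16S) had 4410, 3889 and 4687 CPM in CNTNAP2-203 OE, against 5171, 4490 and 4758 CPM in control. The groups overlapped for each gene, with log2 fold changes of 0.25 (SE 0.126, edgeR adjusted p = 0.363) for MT-RNR1 and -0.15 (SE 0.110, edgeR adjusted p = 0.518) for MT-RNR2. Set against each other within a library, they did not overlap. MT-RNR1 counts were 23.9%, 20.4% and 21.9% of MT-RNR2 counts in CNTNAP2-203 OE, against 16.1%, 18.2% and 16.2% in control. The ratio of means was 1.31, and the two-sided exact permutation p of 0.1 is the smallest the design allows (Benjamini-Hochberg 0.167 over 5 such ratios, all picked after the values had been seen). Depletion of the 2 rRNAs was not measured in these libraries and its part in the ratio was not tested.

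Mitochondrial tRNAs are short, heavily modified and folded, so a library of fragmented long RNA holds few reads of them. Reads in a tRNA gene can come from the mature tRNA, from precursors not yet cut, or from RNA of the other strand, and the kit used does not mark strand. The 22 tRNA genes, 59 to 75 bases long, differed 346-fold in FPKM. The 4 highest were neighbours on the light strand: MT-TC (cysteine) at 1393 FPKM, MT-TN (asparagine) at 1188 FPKM, MT-TY (tyrosine) at 1007 FPKM and MT-TA (alanine) at 571 FPKM over the 6 libraries. Between MT-TN and MT-TC lies a gap of 31 bases, the longest between neighbouring genes outside the control region, where replication of the light strand starts. The lowest was MT-TS1 at 4.03 FPKM, with 5 to 18 counts per library.

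The 7 tRNA genes whose groups did not overlap, and MT-TL2 as the neighbour of a pair of them, are shown 5′ to 3′ as GENCODE 29 gives them (DNA letters), with the anticodon in capitals, which is the base triplet that reads the codon. In MT-TS2, a tRNA without a D arm, the search (a loop of 7 bases closed by a stem with at least 4 of 5 bases paired, read with the vertebrate mitochondrial code) found no anticodon and none is marked.
MT-TG (glycine), chrM:9991-10058, plus strand: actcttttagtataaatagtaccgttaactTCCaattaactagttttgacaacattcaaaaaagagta
MT-TR (arginine), chrM:10405-10469, plus strand: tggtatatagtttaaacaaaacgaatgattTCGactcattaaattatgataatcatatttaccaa
MT-TH (histidine), chrM:12138-12206, plus strand: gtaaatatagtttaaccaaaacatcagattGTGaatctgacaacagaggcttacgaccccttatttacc
MT-TS2 (serine), chrM:12207-12265, plus strand: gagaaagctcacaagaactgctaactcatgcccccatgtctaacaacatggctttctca
MT-TL2 (leucine), chrM:12266-12336, plus strand: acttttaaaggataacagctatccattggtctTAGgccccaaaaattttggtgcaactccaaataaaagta
MT-TT (threonine), chrM:15888-15953, plus strand: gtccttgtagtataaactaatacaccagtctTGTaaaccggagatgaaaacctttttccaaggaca
MT-TA (alanine), chrM:5587-5655, minus strand: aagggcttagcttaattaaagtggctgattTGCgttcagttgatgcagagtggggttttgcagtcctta
MT-TY (tyrosine), chrM:5826-5891, minus strand: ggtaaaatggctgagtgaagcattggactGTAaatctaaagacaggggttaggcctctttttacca
MT-TH, MT-TS2 and MT-TL2 follow each other with no base between them and fill the space between MT-ND4 and MT-ND5. MT-TG lies between MT-CO3 and MT-ND3, and MT-TR between MT-ND3 and MT-ND4L.

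The log2 fold change was positive in 13 of the 14 heavy-strand tRNA genes (median 0.42) and in 3 of the 8 light-strand tRNA genes (median -0.20). No member of either group passed the edgeR test. Neighbouring tRNA genes, such as MT-TH, MT-TS2 and MT-TL2, can take reads from the same uncut precursor. The same holds for MT-TA, MT-TN, MT-TC and MT-TY, so numbers of genes here are not numbers of independent observations. MT-TH had 31.8, 29.8 and 38.1 CPM in CNTNAP2-203 OE, against 26.5, 20.1 and 20.9 CPM in control. MT-TS2 had 30.01, 27.4 and 36.6 CPM in CNTNAP2-203 OE, against 25.4, 19.0 and 19.3 CPM in control. MT-TG had 30.2, 31.1 and 42.0 CPM in CNTNAP2-203 OE, against 27.0, 20.7 and 21.8 CPM in control. In each of these 3 genes all CNTNAP2-203 OE libraries lay above all controls, with control replicate 1 the nearest to them. Their log2 fold changes were 0.56 (SE 0.152, edgeR adjusted p = 0.126) for MT-TH, 0.56 (SE 0.164, adjusted p = 0.146) for MT-TS2 and 0.57 (SE 0.168, adjusted p = 0.148) for MT-TG. DESeq2 gave the lowest adjusted p of all alternatives, 0.0300, 0.0459 and 0.0469, and edgeR without control replicate 3 the highest, 0.394, 0.427 and 0.421.

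The arginine tRNA gene MT-TR and the threonine tRNA gene MT-TT also had groups that do not overlap. MT-TR had 19.0, 20.6 and 27.0 CPM in CNTNAP2-203 OE, against 18.8, 12.4 and 14.5 CPM in control (log2 fold change 0.54, SE 0.198, edgeR adjusted p = 0.219). MT-TT had 9.26, 7.43 and 13.5 CPM in CNTNAP2-203 OE, against 5.47, 6.51 and 7.36 CPM in control (log2 fold change 0.64, SE 0.238, edgeR adjusted p = 0.222). In both, 1 control lay just under the lowest CNTNAP2-203 OE library. MT-TL2 had 35.7, 34.0 and 45.2 CPM in CNTNAP2-203 OE, against 34.0, 23.2 and 24.1 CPM in control, and MT-TI (isoleucine) had 7.77, 5.59 and 10.7 CPM in CNTNAP2-203 OE, against 5.80, 5.19 and 4.99 CPM in control, so that these 2 overlapped. CNTNAP2-203 OE replicate 3 was the highest library in all 7. Without it, the log2 fold changes of these 7 genes were 0.32 to 0.45, and the median of the 14 heavy-strand tRNA genes was 0.27, with 11 positive. MT-TF, MT-TV, MT-TL1, MT-TM, MT-TW, MT-TD and MT-TK, the other heavy-strand tRNA genes, had log2 fold changes of -0.03 to 0.34.

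The adjacent light-strand genes MT-TA, MT-TN, MT-TC and MT-TY had negative log2 fold changes. MT-TY had 75.1, 65.5 and 74.4 CPM in CNTNAP2-203 OE, against 81.5, 92.6 and 92.8 CPM in control (log2 fold change -0.31, SE 0.105, edgeR adjusted p = 0.188). MT-TA had 43.2, 38.8 and 46.5 CPM in CNTNAP2-203 OE, against 47.8, 55.0 and 54.6 CPM in control (log2 fold change -0.29, SE 0.112, edgeR adjusted p = 0.234). Every CNTNAP2-203 OE library lay below every control in both genes. MT-TN averaged 96.2 ± 11.4 CPM in CNTNAP2-203 OE and 114 ± 9.30 CPM in control, and MT-TC averaged 102 ± 14.6 and 121 ± 8.496 CPM (SD, n = 3 each), each with 1 CNTNAP2-203 OE library, replicate 3, inside the range of the controls. The 4 genes had log2 fold changes of -0.36 to -0.34 without that library. The other light-strand tRNA genes were mixed, with -0.15 for MT-TP (proline) and 0.26, 0.37 and 0.51 for MT-TQ, MT-TS1 and MT-TE, and MT-TE (glutamate) was at 0.15 without CNTNAP2-203 OE replicate 3, where it had 30.6 CPM against 13.5 to 18.3 CPM in the other 5 libraries.

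**Figure D3:**
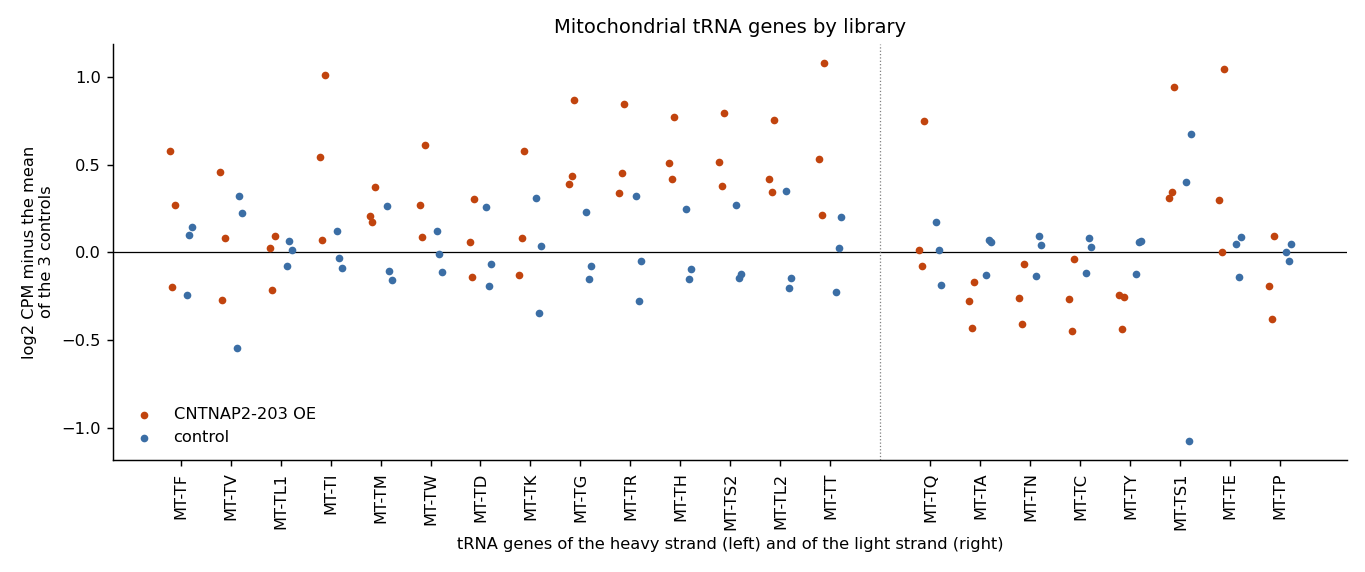
Log2 CPM of each mitochondrial tRNA gene minus the mean of its 3 controls (y axis), with heavy-strand genes left and light-strand genes right of the dotted line and each library as a point (CNTNAP2-203 OE left, control right of each gene's tick). MT-TG, MT-TR, MT-TH, MT-TS2 and MT-TT have all CNTNAP2-203 OE points above the controls, MT-TA and MT-TY have all of them below, and the other 15 genes overlap.

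Counts of the tRNA genes were summed by strand and set against the counts of the 13 protein genes of the same library. These ratios did not overlap between groups, in opposite directions for the 2 strands. MT-TA, MT-TN, MT-TC and MT-TY weigh most in the light-strand sum, with 1896, 4100, 4407 and 3231 counts in control replicate 1. MT-TP, the next, had 951 counts there. Since 3 of the 8 light-strand tRNA genes had positive log2 fold changes, the sum does not stand for the whole strand. Heavy-strand tRNA counts were 0.262%, 0.260% and 0.298% of protein gene counts in CNTNAP2-203 OE, against 0.218%, 0.190% and 0.185% in control. Light-strand tRNA counts were 0.476%, 0.448% and 0.491% in CNTNAP2-203 OE, against 0.493%, 0.607% and 0.562% in control. The ratios of means were 1.38 and 0.852, each with a two-sided exact permutation p of 0.1 (Benjamini-Hochberg 0.167 over the 5 ratios), the smallest the design allows. The light-strand margin was narrow, since CNTNAP2-203 OE replicate 3 and control replicate 1 differed little. For control replicate 1 the labels report a missing file of reverse reads, and whether its counts rest on 1 or both reads was not tested.

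**Figure D4:**
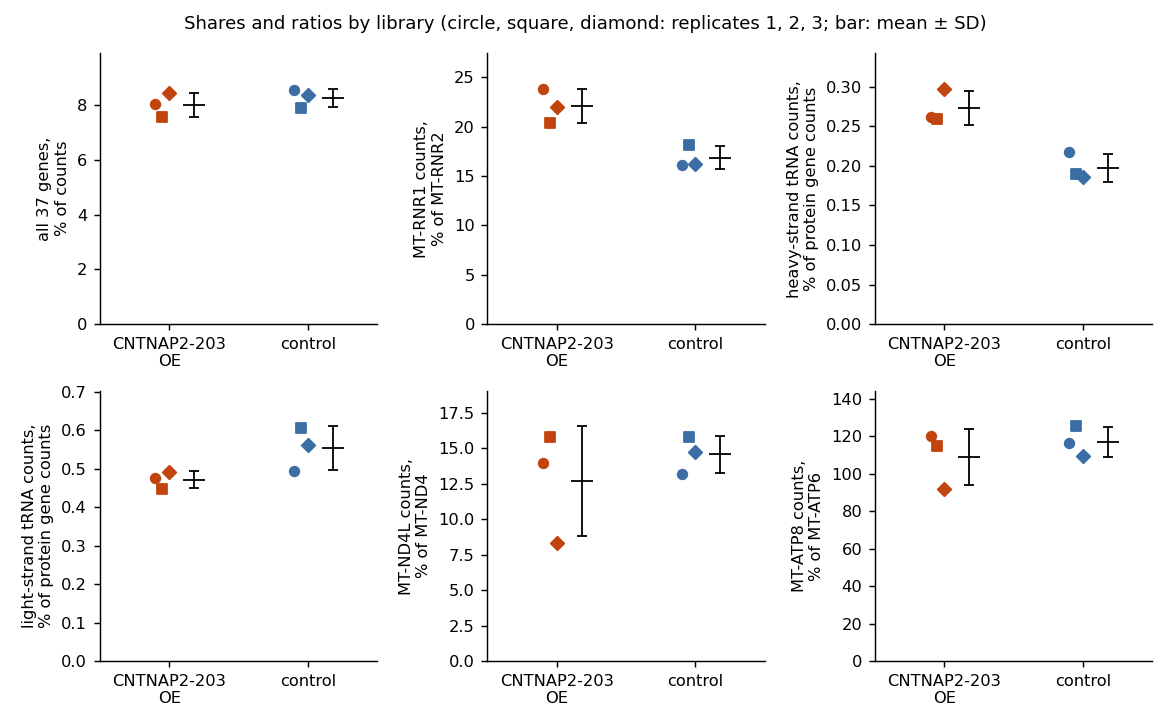
Share of all counts in the 37 genes and 5 ratios of counts within mitochondrial RNA, in percent (y axes), for CNTNAP2-203 OE (left) and control (right); points are libraries and bars the mean ± SD of 3. The share of all counts overlaps at 7.55% to 8.44% against 7.89% to 8.55%, the 12S to 16S ratio and both tRNA ratios do not overlap, and replicate 3 of CNTNAP2-203 OE lies low in both bicistronic pairs.

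Pieces of mitochondrial DNA copied into nuclear chromosomes long ago can collect reads of the genuine transcripts. Of 405 listed pseudogenes of this kind, 71 had counts and 10 passed the filter on low counts. The most counted lie side by side on chromosome 1 (GENCODE 29): MTND2P28 (1:629640-630683), MTCO1P12 (1:631074-632616) and MTATP6P1 (1:633696-634376). MTATP6P1 averaged 866 ± 134 CPM in CNTNAP2-203 OE and 837 ± 95.7 CPM in control, MTCO1P12 553 ± 79.7 and 586 ± 58.6 CPM, and MTND2P28 287 ± 29.4 and 307 ± 10.98 CPM (SD, n = 3 each). None passed edgeR's test (adjusted p = 0.884, 0.790 and 0.669). Adding each copy to its mitochondrial gene left the log2 ratio of mean CPM at 0.05 for MT-ATP6, -0.04 for MT-CO1 and 0.08 for MT-ND2. Reads of these 3 gene pairs cannot be told apart with certainty, and MT-ATP6 is the gene most exposed.

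The nuclear genes that transcribe, process and use mitochondrial RNA were taken as lists, chosen with earlier results on these libraries known, and some genes, TFAM among them, are in more than 1 list. Of 13 genes of mitochondrial transcription none passed the edgeR test, where 0.798% of all tested genes rose and 0.596% fell. The log2 fold change was above 0 in 12 of the 13 (median 0.19, and 0.06 without CNTNAP2-203 OE replicate 3). TFAM, which packages mitochondrial DNA and activates its promoters, had 78.4, 72.2 and 69.6 CPM in CNTNAP2-203 OE, against 60.7, 64.3 and 60.6 CPM in control (log2 fold change 0.25, SE 0.0940, edgeR adjusted p = 0.235). MRPL12, a ribosomal protein reported to bind the mitochondrial RNA polymerase, averaged 132 ± 34.0 CPM in CNTNAP2-203 OE and 91.8 ± 3.68 CPM in control, and TFB1M, a methyltransferase of 12S rRNA, 30.5 ± 4.87 and 25.1 ± 0.929 CPM (SD, n = 3 each; adjusted p = 0.182 and 0.339). All 3 had CNTNAP2-203 OE libraries above every control without passing the test. They are the 3 genes with the smallest p of the list, and 13.7% of all tested genes lay above every control.

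Among 30 genes of mitochondrial RNA processing and turnover none passed and 26 were positive, with a median of 0.13, while without CNTNAP2-203 OE replicate 3 22 were positive with a median of 0.063. ELAC2, the nuclease that cuts the 3′ ends of tRNAs, had 109, 114 and 113 CPM in CNTNAP2-203 OE, against 88.1, 89.98 and 90.98 CPM in control. Its libraries were tight within groups and apart between them, yet the log2 fold change of 0.33 did not pass (SE 0.0848, edgeR adjusted p = 0.115). HSD17B10, a subunit of the RNase P that cuts the 5′ ends, averaged 74.6 ± 10.2 CPM in CNTNAP2-203 OE and 53.8 ± 4.15 CPM in control (adjusted p = 0.124), and SLIRP, a partner of the mRNA-stabilising protein LRPPRC, 51.5 ± 13.2 and 36.4 ± 1.46 CPM (SD, n = 3 each; adjusted p = 0.204). Of 24 genes that modify mitochondrial tRNA and rRNA, 20 were positive with a median of 0.09 and none passed, while without CNTNAP2-203 OE replicate 3 the median was 0.023 with 19 positive. The 3 with the smallest p were MRM2, which methylates 16S rRNA, at 81.7 ± 7.08 CPM in CNTNAP2-203 OE and 53.0 ± 13.9 CPM in control, the pseudouridine synthase gene PUS1 at 39.9 ± 13.3 and 26.4 ± 0.863 CPM, and METTL17 at 160 ± 18.2 and 132 ± 10.7 CPM (adjusted p = 0.166, 0.249 and 0.276). Of 18 translation and insertion factors 16 were positive with a median of 0.11 (15 and 0.065 without CNTNAP2-203 OE replicate 3) and none passed. The smallest p belonged to MTFMT (log2 fold change 0.52, edgeR adjusted p = 0.272), TSFM (0.84, 0.378) and TUFM (0.21, 0.412).

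Beside 0.798% of all tested genes, 1 of 25 genes of mitochondrial DNA replication and maintenance rose. It was FEN1, a flap endonuclease that also acts in nuclear replication, with 113, 109 and 125 CPM in CNTNAP2-203 OE, against 57.9, 58.0 and 61.7 CPM in control. Its log2 fold change was 0.97 (SE 0.0962, edgeR adjusted p = 0.00930); the call stood on leaving out each CNTNAP2-203 OE library in turn but not on leaving out a control (adjusted p up to 0.0753). The next were the helicase-nuclease gene DNA2 (log2 fold change 0.69, adjusted p = 0.0756) and ATAD3A (0.63, adjusted p = 0.106), and the median of the list was 0.13 with 19 positive, against 0.067 with 17 positive without CNTNAP2-203 OE replicate 3. Of 14 regulators of mitochondrial biogenesis 7 were positive with a median of -0.02 (5 and -0.060 without CNTNAP2-203 OE replicate 3) and none passed, with SP1 at -0.26 (edgeR adjusted p = 0.218) and ESRRA at 0.50 (adjusted p = 0.293). MYC, a member of that list, had 22.0, 17.1 and 20.1 CPM in CNTNAP2-203 OE, against 23.1, 149 and 18.3 CPM in control (log2 fold change -1.69, adjusted p = 0.404). The high value came from control replicate 2 alone.

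In the list of mitochondrial stress genes, 14 tested, 1 rose and 1 fell, where 0.798% of all tested genes rose and 0.596% fell. HSPE1, the co-chaperonin of the matrix, had 178, 160 and 214 CPM in CNTNAP2-203 OE, against 102, 97.96 and 110 CPM in control (log2 fold change 0.83, SE 0.125, edgeR adjusted p = 0.0304). GDF15, a secreted stress cytokine, had 81.8, 71.0 and 92.6 CPM in CNTNAP2-203 OE, against 174, 139 and 130 CPM in control (log2 fold change -0.85, SE 0.148, edgeR adjusted p = 0.0428). The HSPE1 call stood without CNTNAP2-203 OE replicate 2 or 3 but not without replicate 1 or a control, and the GDF15 call stood only without CNTNAP2-203 OE replicate 3, with adjusted p of up to 0.164 for both. LONP1, the matrix protease, followed at -0.50 (adjusted p = 0.0625), and the median of the list was -0.04, or -0.02 without CNTNAP2-203 OE replicate 3.

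The nuclear subunits of the complexes that hold the mitochondrial proteins had higher medians than their mitochondrial partners, with CNTNAP2-203 OE replicate 3 the furthest from control. None of them passed the edgeR test. Of 37 nuclear complex I subunits 35 were positive with a median of 0.37, of 9 in complex III all 9 with 0.26, of 12 tested in complex IV 11 with 0.41, and of 19 in complex V (with its inhibitor and an assembly factor) all 19 with 0.38, where all tested genes had a median of -0.00. Complex II, which has no mitochondrially encoded subunit, had 3 of 4 positive with a median of 0.15, or 0.067 without CNTNAP2-203 OE replicate 3. The smallest p in each complex belonged to NDUFC1 (log2 fold change 0.75, edgeR adjusted p = 0.108), SDHB (0.22, 0.389), UQCR10 (0.45, 0.173), COX7B (0.72, 0.0581) and ATP5G1 (0.65, 0.0969). The next by p were NDUFB2, NDUFS3, SDHC, SDHD, UQCRQ, UQCRH, COX8A, NDUFA4, ATP5F1 and ATP5L, with log2 fold changes of 0.13 to 0.59. COX7B had 91.9, 82.8 and 116 CPM in CNTNAP2-203 OE, against 53.999, 58.97 and 63.9 CPM in control, and its edgeR adjusted p was 0.0361 to 0.226 on leaving out 1 library, passing only without CNTNAP2-203 OE replicate 3.

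By library, the median of the nuclear complex I genes relative to their control mean was 0.20, 0.12 and 0.67 (log2) in CNTNAP2-203 OE replicates 1, 2 and 3, against 0.04, -0.07 and 0.02 in control replicates 1, 2 and 3. The nuclear complex IV genes were at 0.21, 0.17 and 0.71 in CNTNAP2-203 OE, against 0.03, -0.09 and 0.06 in control. In these terms the 13 mitochondrial protein genes were at 0.04, -0.10 and 0.23 in CNTNAP2-203 OE, against 0.05, -0.05 and 0.03 in control. CNTNAP2-203 OE replicate 3 was the highest library in all 3 lists, and its distance from the others was larger for the nuclear genes. Without it, the medians of the fitted log2 fold changes were 0.16, 0.09, 0.22 and 0.23 for the nuclear subunits of complexes I, III, IV and V and -0.04 for the 13 mitochondrial protein genes, of which 4 were then positive against 7 with it. The difference between nuclear and mitochondrial members was not tested.

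**Figure D5:**
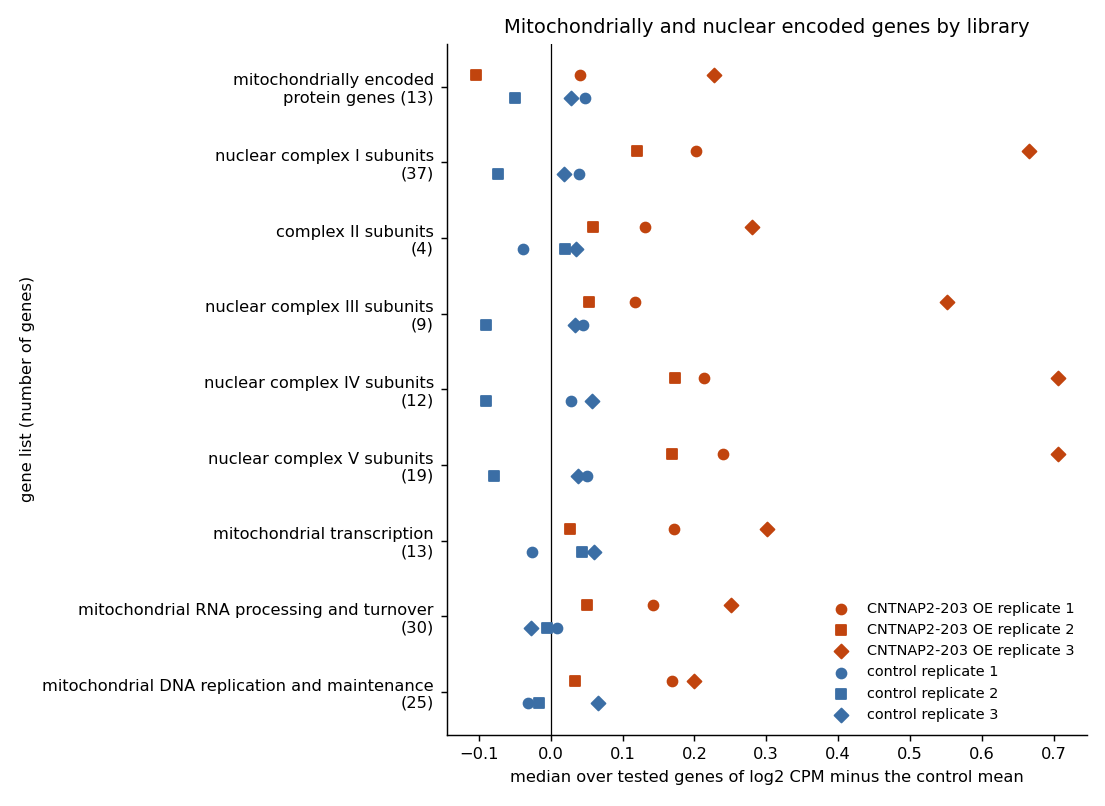
Median over the tested genes of each list of log2 CPM minus the control mean (x axis), by library, for the 13 mitochondrially encoded protein genes and 8 nuclear lists (y axis, number of genes in brackets); CNTNAP2-203 OE above control in each row. CNTNAP2-203 OE replicate 3 is the rightmost point in every row, at 0.23 for the mitochondrial genes and 0.55 to 0.71 for nuclear subunits of complexes I, III, IV and V.

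Abundant noncoding RNAs, listed as a sign of library composition, differed between libraries more than between groups. None of 8 tested passed, and NEAT1 averaged 486 ± 92.3 CPM in CNTNAP2-203 OE and 617 ± 145 CPM in control. The signal recognition particle RNAs RN7SL1 and RN7SL2 were at 16.97 ± 15.9 and 18.2 ± 16.3 CPM in CNTNAP2-203 OE, against 7.95 ± 3.28 and 9.66 ± 2.20 CPM in control (SD, n = 3 each). The median of the list relative to the control mean was 1.11, -0.13 and -0.59 (log2) in CNTNAP2-203 OE replicates 1, 2 and 3, against -0.15, 0.25 and -0.14 in control replicates 1, 2 and 3. MT-RNR1 had 1052, 793 and 1029 CPM in CNTNAP2-203 OE replicates 1, 2 and 3, of which replicate 1 was the highest library in this list and replicate 3 the lowest. The part of library composition in the tRNA and rRNA differences was not tested.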

How the data were processed

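RNA from 3 CNTNAP2-203 OE and 3 control libraries was sequenced after rRNA removal (Ribo-Zero) with a TruSeq v2 kit that keeps no strand information, per the labels' protocols. Trim Galore 0.4.4 and hg38 are named in the submitters' processing notes, while the aligner, the counter and its handling of reads that fit several genes are unknown here, which bears on genes with nuclear copies. The authors deposited whole-number raw counts per gene. The second deposited table holds log2 values; treating them as log2(FPKM + 1) made each gene's implied length vary by a median of 0.0757% across libraries, against 2.47% with an offset of 0. Counts were tested with edgeR 4.0.16 in R 4.3.3: filterByExpr (minimum count 10), TMM, a robust quasi-likelihood fit on group alone, and Benjamini-Hochberg adjustment over 18786 genes at 0.05. An SE is the absolute log2 fold change over the square root of F. The script was tested on simulated data, where it recovered 5.97% of 1.5-fold, 41.8% of 2-fold and 89.4% of 4-fold changes. Of 103 calls there, 12 were false. The changed genes there were drawn at random from all but the lowest tested genes. Such a gene that did not pass can thus still differ by 1.5-fold. Recovery among genes as abundant as the mitochondrial protein genes, whose SE was 0.0922 to 0.196, was not measured apart. Of each nuclear list the 3 genes with the smallest p are named. PRORP, MTRES1 and DELE1, planned for the RNA processing, translation and stress lists, were not found under these symbols and were not looked at. The members and the 13 nuclear lists were chosen with earlier results of these data known. Alternatives were other scalings, no filter, DESeq2 1.42.0, limma-voom (limma 3.58.1), a replicate block and leaving out each library. Sequences and coordinates are those of GENCODE 29.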

Additional observations from a re-analysis of the deposited data

How the results depend on the processing

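No mitochondrially encoded gene passed in edgeR or limma-voom under the settings tried, while DESeq2 called 3. At an unadjusted p under 0.05 were 9 of the 37 in edgeR as reported and 8 in limma-voom. In edgeR this number was 3 without control replicate 2, beside 2283 of 19443 tested genes. It was 4 without control replicate 3, beside 2146 of 19313, and 7 with the replicate block. The highest was 11, without scaling factors or without CNTNAP2-203 OE replicate 2. The higher share of such genes among the 37 than among all tested genes was thus lost without control replicate 2 or 3. Over all genes the 262 edgeR calls became 17 with the replicate block, 1125 with DESeq2, 166 with limma-voom and, in an alternative chosen after seeing the data, 165 when scaled to mitochondrially encoded counts. Leaving out 1 library gave 14 (without control replicate 2) to 545 (without CNTNAP2-203 OE replicate 3). Same-numbered libraries deviated with correlations of -0.08, 0.05 and -0.03, so the block rests on a number alone. The median of the protein genes was 0.01 to 0.08, except -0.04 without CNTNAP2-203 OE replicate 3. The share of counts differed by -0.03 to -0.47 percentage points on leaving out 1 library. Of 518 log2 fold changes of members in 14 alternatives, 16 had the other sign, each on leaving out 1 library; the ranges were -0.044 to 0.12 for MT-ATP6, -0.091 to 0.012 for MT-CO1, -0.15 to 0.074 for MT-CO2, -0.025 to 0.25 for MT-CO3, -0.0041 to 0.26 for MT-ND1, -0.054 to 0.21 for MT-TD, -0.048 to 0.35 for MT-TK, -0.10 to 0.058 for MT-TL1, -0.044 to 0.42 for MT-TQ and -0.15 to 0.24 for MT-TV. The cause was not tested. Low counts limit MT-TS1, with 5 to 18 per library and an SE of 0.52.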
